A study of Mus musculus with 7 samples.

Results

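The renin-angiotensin system was described in the liver of Trpm6-deficient mice through 8 genes that were chosen by symbol, namely Agt, Ace, Enpep, Atp6ap2, Agtr1a, Agtr1b, Agtr2 and Mas1. A probe set of the array was taken for a gene if the platform annotation gave that symbol alone, and 7 of the 8 genes had exactly 1 such probe set. Agtr1b had none and has no value here. These are 7 of the 19938 genes with a symbol of their own on the array. The 8 genes were put together with earlier results of these data known, among them the call for Agt, so their values are a description of the system and are not independent evidence that it changed.

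Livers came from 3 Trpm6-deficient and 4 control male littermates on a C57BL/6 background, with 1 array per mouse. In the Trpm6-deficient mice both alleles of Trpm6, a channel kinase gene for Mg2+ uptake, lacked a floxed exon in all tissues derived from the epiblast, and these mice carried the Sox2-Cre transgene. The controls carried 1 floxed and 1 wild-type allele without Cre, so that the deletion and the transgene cannot be told apart. Trpm6-deficient 2 and controls 1 and 2 were 12 weeks old, and the other 4 mice were 13 weeks old. Values are log2 expression, so that a difference of 1 is a doubling, and the array medians lay between 6.43 and 6.48. Control 1 stood apart from the other controls as the lowest in all 9 sinusoidal endothelial and 5 of 6 Kupffer cell markers, and results for those lists are given with and without it. Nothing in the labels says more of how the littermates are related, and p-values measure the spread between these 7 mice.

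Angiotensinogen, the product of Agt, is a serpin that hepatocytes secrete into the blood. Renin, an aspartyl protease of the kidney, cuts it to angiotensin I, which angiotensin-converting enzyme (Ace) trims to angiotensin II. Angiotensin II raises blood pressure through the AT1 receptor, encoded in mice by Agtr1a and Agtr1b, and aminopeptidase A (Enpep) removes its first residue. The AT2 receptor (Agtr2) and the receptor Mas1, which binds angiotensin-(1-7), are known to oppose AT1 signalling, and Atp6ap2 encodes the (pro)renin receptor, which is also an accessory protein of the vacuolar ATPase.

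Agt, the substrate of the whole system, rose in the Trpm6-deficient livers. Its log2 values were 13.56, 13.54 and 13.62 in Trpm6-deficient 1, 2 and 3, against 13.13, 13.19, 13.16 and 13.11 in controls 1 to 4. Every Trpm6-deficient liver lay above every control, with a gap of 0.35 between the nearest livers, which is larger than the spread within either group. The means were 13.57 ± 0.04 (SD, n = 3) in Trpm6-deficient and 13.15 ± 0.03 (SD, n = 4) in control livers, a log2 change of 0.43 (standard error, SE, 0.04; adjusted p = 0.0697 by limma). This is a 1.34-fold higher level, with a 95% confidence interval of 1.25 to 1.45. Agt was the 1 of the 7 genes to pass at an adjusted p of 0.1 or less, where 0.129% of all 35556 probe sets passed and 0.0759% passed with a higher and 0.0534% with a lower level in Trpm6-deficient livers. In order of unadjusted p-values Agt stood at place 23 of all probe sets. The size of the change barely depended on single mice. Without any 1 of the 7 mice the log2 change lay between 0.40 and 0.44 while the adjusted p lay between 0.119 and 0.273. The call for Agt was thus lost whichever mouse was left out. Over all probe sets 46 passed with all mice, 69 without Trpm6-deficient 1, and 7 to 17 without any other mouse. The call was also lost with age as a covariate (log2 change 0.43, adjusted p = 0.169), where 8 of all probe sets passed. After quantile normalization it was lost too (0.41, adjusted p = 0.120), where 51 passed. The same held with the replicate number of the labels as a block (0.41, adjusted p = 0.388), a fit to which control 4 adds nothing. Within the mice of 12 weeks, 1 Trpm6-deficient and 2 control, the difference was 0.38, and within those of 13 weeks, 2 and 2, it was 0.46.

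**Figure D1:**
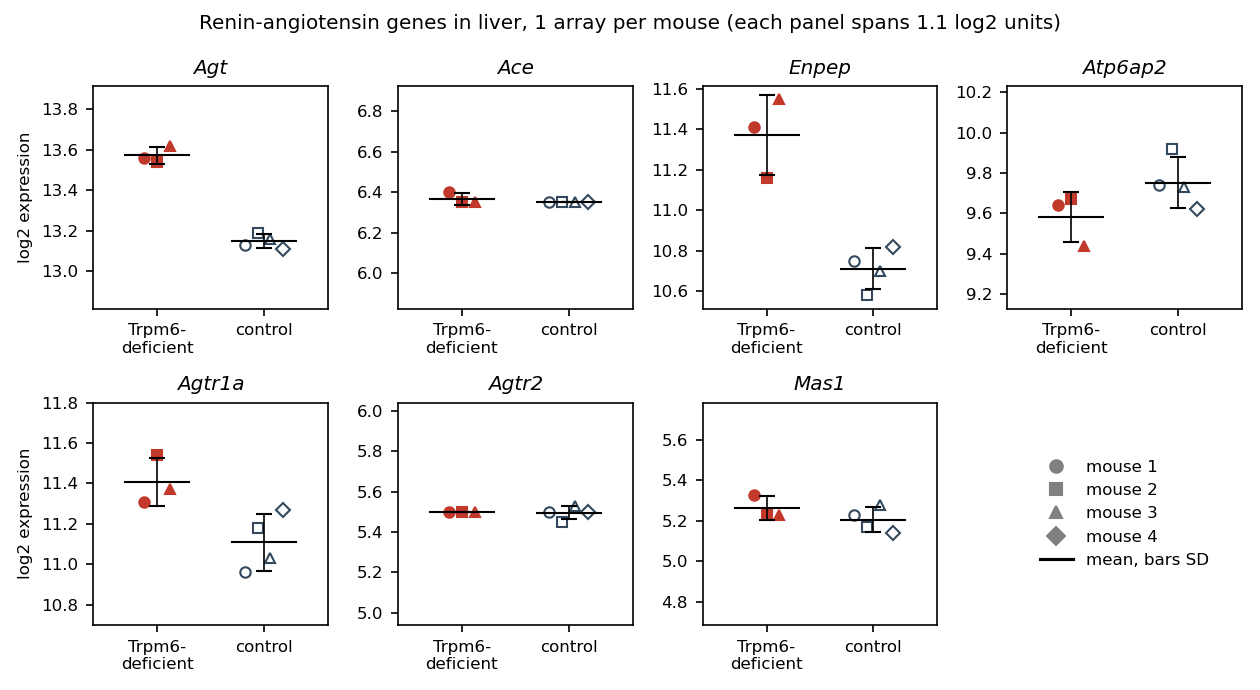
Log2 expression of the 7 renin-angiotensin genes with a probe set, with 1 point per liver (Trpm6-deficient, n = 3, filled; control, n = 4, open), means drawn as lines and SDs as bars; every panel spans the same number of log2 units. The groups are apart for Agt, Enpep and Agtr1a, and for Agtr1a the nearest livers differ by 0.04.

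Neither of the 2 peptidase genes, Enpep and Ace, passed the test, and only in Enpep were the groups apart. Enpep had log2 values of 11.41, 11.16 and 11.55 in Trpm6-deficient 1, 2 and 3, against 10.75, 10.58, 10.70 and 10.82 in controls 1 to 4. The groups did not overlap and the nearest livers differed by 0.34, although Trpm6-deficient 2 lay well below the other two. The means were 11.37 ± 0.20 (SD, n = 3) in Trpm6-deficient and 10.71 ± 0.10 (SD, n = 4) in control livers. The log2 change of Enpep, 0.66 (SE 0.11, 95% confidence interval 0.41 to 0.92), is a 1.58-fold difference and the largest among the 7 genes, but it did not pass limma's test (unadjusted p = 0.000587, adjusted p = 0.192). It lay between 0.57 (without Trpm6-deficient 3) and 0.77 (without Trpm6-deficient 2) when single mice were left out.

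Ace was at 6.40, 6.35 and 6.35 in Trpm6-deficient 1, 2 and 3 and at 6.35 in all 4 controls, a log2 change of 0.02 (95% confidence interval -0.08 to 0.11, adjusted p = 0.960 from limma). Identical deposited values on all 4 control arrays occurred for 811 probe sets, so the SD of 0.00 of Ace is not a measure of its spread between mice. Ace is known as a gene of endothelial cells, and the 9 sinusoidal endothelial markers measured here are given below.

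Atp6ap2 had log2 values of 9.64, 9.67 and 9.44 in Trpm6-deficient 1, 2 and 3, against 9.74, 9.92, 9.73 and 9.62 in controls 1 to 4. The groups overlapped, since control 4 lay below Trpm6-deficient 1 and 2. Its log2 change was -0.17 (SE 0.09, 95% confidence interval -0.39 to 0.05, adjusted p = 0.820 from limma), and it was the 1 of the 7 genes with a lower mean in the Trpm6-deficient livers.

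Among the receptors, Agtr1a, which encodes the main AT1 receptor of mouse liver, had log2 values of 11.31, 11.54 and 11.37 in Trpm6-deficient 1, 2 and 3, against 10.96, 11.18, 11.03 and 11.27 in controls 1 to 4. The groups did not overlap, but Trpm6-deficient 1 and control 4 were only 0.04 apart. The means were 11.41 ± 0.12 (SD, n = 3) in Trpm6-deficient and 11.11 ± 0.14 (SD, n = 4) in control livers. The log2 change of 0.30 (SE 0.10, 95% confidence interval 0.06 to 0.53) did not pass limma's test (unadjusted p = 0.0198, adjusted p = 0.641). Without Trpm6-deficient 2, the highest liver, it was 0.23. Within the mice of 12 weeks the difference was 0.47 and within those of 13 weeks 0.19. Agtr1b is a close paralog of Agtr1a, and whether the Agtr1a probes also read Agtr1b was not examined.

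Agtr2 was at 5.50 in all 3 Trpm6-deficient livers and at 5.50, 5.45, 5.53 and 5.50 in controls 1 to 4 (log2 change 0.00, 95% confidence interval -0.09 to 0.10, adjusted p = 0.993 from limma). The sign of this change turned to a value of -0.01 after quantile normalization, after centring each array on its median, and without control 2. Mas1 was at 5.33, 5.23 and 5.23 in Trpm6-deficient 1, 2 and 3 and at 5.23, 5.17, 5.28 and 5.14 in controls 1 to 4 (log2 change 0.06, 95% confidence interval -0.07 to 0.19, adjusted p = 0.884 from limma). Both receptors overlapped between the groups.

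Whether a gene at such a level is read at all was judged by the 1035 probe sets of olfactory receptor genes, which liver is not known to express. The 95th percentile of their mean log2 values over the 7 arrays was 5.97, and their median was 4.32. Agt, Enpep, Agtr1a and Atp6ap2 lay far above it, and Ace, with a mean of 6.36, lay just above it. Agtr2 (mean 5.50) and Mas1 (mean 5.23) lay below it, above 86.9% and 80.7% of these probe sets. For Agtr2 and Mas1 a difference between the groups was therefore not detectable on this array, and the absence of a change cannot be read from them.

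Of the 7 genes, 6 had a higher and 1 a lower mean in the Trpm6-deficient livers, with a median log2 change of 0.06. Genes whose limma p before adjustment was no more than 0.05 are called nominally higher or lower here. By this measure 3 of 7 were nominally higher and 0 nominally lower, where 6.87% of all probe sets met it, 3.85% as higher and 3.03% as lower. The groups were apart with Trpm6-deficient livers higher in the same 3 genes, where this holds for 2.94% of all probe sets, against 2.38% with Trpm6-deficient livers lower and 5.33% in either direction. The genes were selected with results of this contrast known, so nothing is read from these shares.

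**Figure D2:**
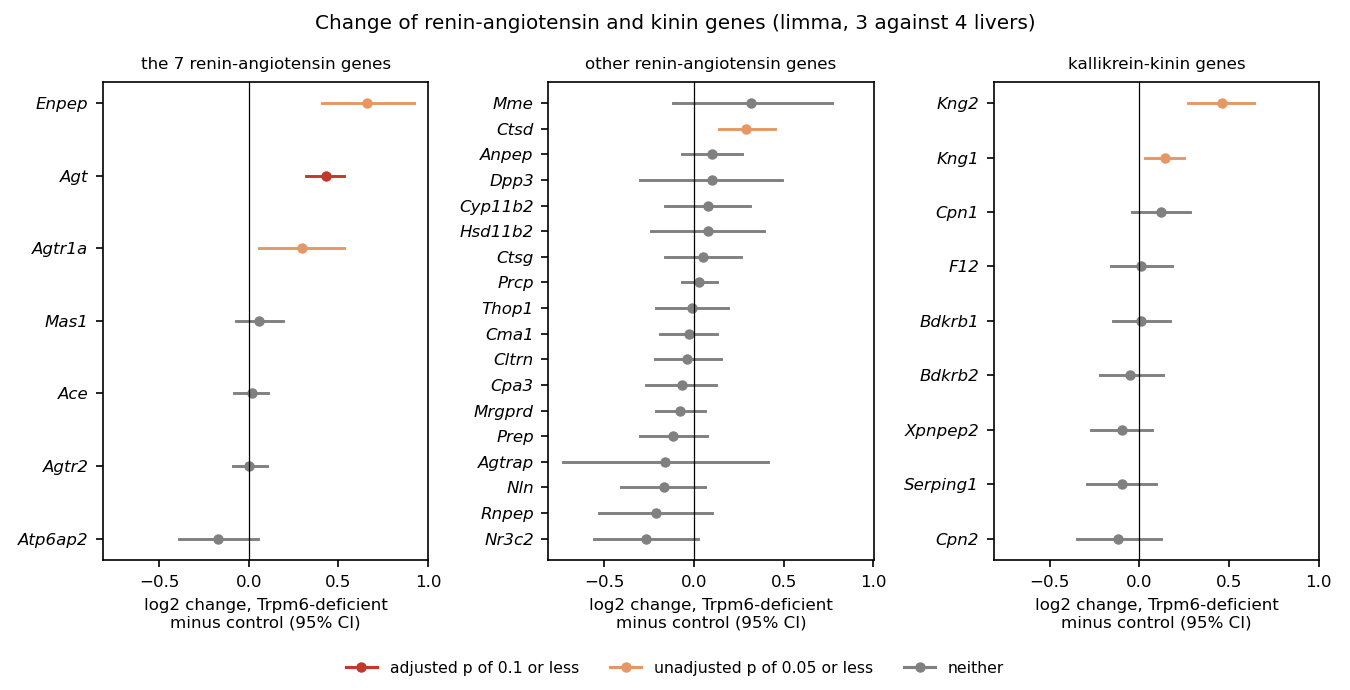
Log2 change (Trpm6-deficient minus control, point) and its 95% confidence interval from limma (line) for the 7 renin-angiotensin genes, 18 other genes of the system and 9 kallikrein-kinin genes; colour gives the test passed. Agt passes after adjustment, and Enpep, Agtr1a, Ctsd, Kng2 and Kng1 pass without it only.

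The promoters of Agt and Enpep are shown because the groups were farthest apart, among the 7 genes, in these 2. They run from 250 bases before to 50 after the annotated start, 5′ to 3′ on the strand of the gene, and come from RefSeq on GRCm38.p6. Agt lies at chr8:124569657-124569956 and Enpep at chr3:129332700-129332999, both on the minus strand. Capitals mark a TATA box (TATAAA, forward strand) and matches to TTCNNNGAA, the palindrome that STAT factors are known to bind.
Agt: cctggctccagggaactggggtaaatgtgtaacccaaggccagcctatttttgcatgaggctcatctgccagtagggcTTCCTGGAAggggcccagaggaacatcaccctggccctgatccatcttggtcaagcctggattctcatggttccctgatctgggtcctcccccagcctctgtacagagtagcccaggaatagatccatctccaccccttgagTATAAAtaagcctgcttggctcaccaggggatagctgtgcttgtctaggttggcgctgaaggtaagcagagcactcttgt
Enpep: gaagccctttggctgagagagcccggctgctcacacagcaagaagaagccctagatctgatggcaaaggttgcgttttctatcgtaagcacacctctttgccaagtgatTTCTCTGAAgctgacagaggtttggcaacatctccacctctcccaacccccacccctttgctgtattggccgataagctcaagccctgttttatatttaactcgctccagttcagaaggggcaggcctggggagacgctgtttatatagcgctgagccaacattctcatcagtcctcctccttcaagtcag

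In Agt the TATA box begins 30 bases before the annotated start, and in Enpep these letters occur 2 times, both on the reverse strand. The letters TATAAA stand on either strand of 13.6% of 32851 promoters of this length. Both promoters hold TTCNNNGAA 1 time, 172 bases before the start in Agt and 141 bases before it in Enpep, where 8.3% of all promoters hold it. GGTCA, a half-site of the estrogen receptor, occurs 1 time in Agt and in 40.5% of promoters (either strand), and AGAACA, a half-site of the glucocorticoid receptor, in neither and in 19% of promoters. The 4 motifs were chosen with the sequences in view, do not overlap in these promoters, and are letters in a window, not sites that were measured.

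Of 22 other listed genes of the system 18 were measured and none passed after adjustment by limma, while 1 was nominally higher and 0 nominally lower. Their median log2 change was -0.02, where the median of all probe sets was 0.00, and the range was -0.27 to 0.32. Ctsd, which encodes the aspartyl protease cathepsin D, had values of 12.12, 11.94 and 12.01 in Trpm6-deficient 1, 2 and 3, against 11.63, 11.77, 11.75 and 11.78 in controls 1 to 4. The groups were apart, with a log2 change of 0.29 (SE 0.06, adjusted p = 0.385 from limma). Mme, which encodes neprilysin, an enzyme that makes angiotensin-(1-7), had a log2 change of 0.32 (SE 0.18, adjusted p = 0.830), and Anpep, which encodes the aminopeptidase that acts after aminopeptidase A, one of 0.10 (SE 0.07, adjusted p = 0.851). Nr3c2, the mineralocorticoid receptor gene, had a log2 change of -0.27 (SE 0.12, adjusted p = 0.759), with the groups overlapping. Agtrap, which encodes a protein that binds the AT1 receptor and promotes its internalization, had -0.16 (SE 0.24, adjusted p = 0.926). Control 1 was at 6.84 for Agtrap and the other controls at 7.63 to 7.81, and without control 1 Agtrap was nominally lower. Without Trpm6-deficient 1, Nr3c2 was nominally lower. Without Trpm6-deficient 3, Mme was nominally higher and Cpa3 and Prep nominally lower. Cpa3, with a mean of 4.94, lay below the 95th percentile of the olfactory receptor probe sets, so nothing is read from its change. Listed genes without a probe set of that symbol alone, Ren1 and Lnpep among them, were not analysed here.

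The kallikrein-kinin system shares its peptidases with the renin-angiotensin system, since angiotensin-converting enzyme also inactivates bradykinin, which is cut from the kininogens. Of 11 listed genes 9 were measured and none passed after adjustment by limma, with 2 nominally higher, 0 nominally lower and a median log2 change of 0.01. Both were kininogen genes of the liver. Kng2 had log2 values of 13.13, 12.99 and 13.13 in Trpm6-deficient 1, 2 and 3, against 12.69, 12.65, 12.46 and 12.71 in controls 1 to 4, a log2 change of 0.46 (SE 0.08, adjusted p = 0.231). Kng1 had values of 13.84, 13.81 and 13.87 in Trpm6-deficient 1, 2 and 3, against 13.76, 13.70, 13.64 and 13.71 in controls 1 to 4, a log2 change of 0.14 (SE 0.05, adjusted p = 0.647). The groups were apart in both genes. Kng1 and Kng2 are close paralogs, and probes shared between them were not examined. The kinin receptor genes Bdkrb1 and Bdkrb2 had log2 changes of 0.01 and -0.05 (SE 0.07 each).

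Downstream of the AT1 receptor, 18 of 19 listed genes of its signalling were measured and none passed limma's test after adjustment. Of these, 1 was nominally higher and 1 nominally lower, and the median log2 change was -0.01. Prkca, a protein kinase C gene, was at 8.41, 8.61 and 8.90 in Trpm6-deficient 1, 2 and 3, against 8.13, 8.25, 7.51 and 7.81 in controls 1 to 4 (log2 change 0.72, SE 0.21, adjusted p = 0.576). Ptk2b, a calcium-dependent tyrosine kinase gene, was at 9.50, 9.23 and 9.08 in Trpm6-deficient 1, 2 and 3, against 9.51, 9.75, 9.74 and 9.50 in controls 1 to 4 (log2 change -0.35, SE 0.12, adjusted p = 0.649). Prkca was apart between the groups and Ptk2b met at 9.50. Without control 1, Rgs2 (log2 change -0.30 with all mice, SE 0.21) was also nominally lower. No gene of this list was nominally lower without control 2 or 3, or without Trpm6-deficient 2 or 3.

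Transcription factors known to act on the Agt gene were a further list, of which 15 of 18 genes were measured and none passed limma's test after adjustment. Here 1 was nominally higher and 1 nominally lower, with a median log2 change of -0.01. Esr1, the gene of the estrogen receptor, which is known to induce Agt in liver, had values of 9.47, 9.59 and 9.49 in Trpm6-deficient 1, 2 and 3, against 8.99, 9.10, 8.78 and 8.69 in controls 1 to 4. The groups were apart by 0.37, with a log2 change of 0.63 (SE 0.11, adjusted p = 0.232). Cebpa, the gene of a liver C/EBP factor, was at 10.68, 11.13 and 10.73 in Trpm6-deficient 1, 2 and 3, against 11.10, 11.28, 11.30 and 11.38 in controls 1 to 4, a log2 change of -0.42 (SE 0.13, adjusted p = 0.603), and the groups overlapped. Nr3c1, the glucocorticoid receptor gene, had a log2 change of -0.10 (SE 0.07, adjusted p = 0.851), and Stat3, which mediates the acute phase response, one of -0.01 (SE 0.13).

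In whole liver, fewer cells of a type and less RNA per cell cannot be told apart. Of 10 hepatocyte markers 0 were nominally higher or lower, with a median log2 change of 0.03. Their summed linear level was 149000 to 152000 in Trpm6-deficient and 139000 to 153000 in control livers, so the groups overlapped in it. Control 1 was the highest control, at 153000. Without it the controls summed to 139000 to 149000, and the lowest Trpm6-deficient liver was also at 149000 as rounded. The median without control 1 was 0.06, and Trf was nominally higher. All 9 sinusoidal endothelial markers had lower means in the Trpm6-deficient livers (0 of them nominally, median -0.21), with a summed level of 6370 to 9350 in Trpm6-deficient and 5280 to 11600 in control livers. That overlap rested on control 1, at 5280. Without it the controls summed to 9990 to 11600, above every Trpm6-deficient liver, the median was -0.33, and Lyve1, Clec4g, Mrc1 and Cdh5 were nominally lower. Control 1 was singled out as the lowest control in these same markers, so a downward shift without it follows from that choice. Of 9 stellate cell markers, Reln and Des were nominally higher, with a summed level of 8370 to 11100 in Trpm6-deficient and 7390 to 9650 in control livers. Lrat and Colec11 had lower means in the Trpm6-deficient livers (log2 changes -0.21, SE 0.24, and -0.08, SE 0.10). Without control 1, Reln was nominally higher, Lrat nominally lower and Des neither. Of 5 smooth muscle markers Acta2 was nominally higher, at 8.03, 9.42 and 9.95 in Trpm6-deficient 1, 2 and 3, against 7.75, 8.03, 7.63 and 7.58 in controls 1 to 4. Tagln was at 6.88, 7.67 and 8.28 in Trpm6-deficient 1, 2 and 3, against 6.67, 7.06, 6.70 and 7.06 in controls 1 to 4, a log2 change of 0.74 (SE 0.32) that was not nominal, and like Acta2 it was highest in Trpm6-deficient 3 and lowest of its group in Trpm6-deficient 1. Actg2, Myh11 and Cnn1 had log2 changes of 0.18, 0.16 and -0.15, and Actg2 and Cnn1 lay below the 95th percentile of the olfactory receptor probe sets. The summed level of the 5 genes was 582 to 1520 in Trpm6-deficient and 513 to 585 in control livers. Acta2 was not nominally higher without Trpm6-deficient 2 or 3. Without Trpm6-deficient 1, Acta2 passed after adjustment (log2 change 1.94, adjusted p = 0.0803 from limma). Enpep and Agtr1a are also known from pericytes and stellate cells, and the part of these cells in their values was not tested. Of 6 Kupffer cell markers 0 were nominally higher or lower, with a median log2 change of -0.29 and a summed level of 3660 to 4010 in Trpm6-deficient and 3010 to 5990 in control livers. Without control 1, at 3010, the controls summed to 5160 to 5990, above every Trpm6-deficient liver, and 5 of the 6 (Adgre1, Cd5l, Clec4f, Timd4 and Vsig4) were nominally lower, with a median of -0.51. Here too control 1 was singled out by these same markers, so nothing is read from the endothelial and Kupffer values without it. The share of all probe sets nominally changed without control 1 is not given here. Of 5 lymphocyte markers 0 were nominally higher or lower with or without control 1, with a summed level of 434 to 464 in Trpm6-deficient livers, against 419 to 543 in all controls and 466 to 543 in controls 2 to 4. Without control 1 the log2 changes were 0.42 for Agt (adjusted p = 0.216 by limma), 0.67 for Enpep and 0.25 for Agtr1a, and the part of endothelial and Kupffer cells in these values was not tested. Of 5 cholangiocyte markers Krt19 was nominally higher, and of 8 kidney and adrenal markers, which would show tissue that adheres to the liver, Cyp17a1 was, a gene that mouse liver also expresses.

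The genes whose values ran most like those of Agt over the 7 livers were named by Pearson's correlation among 18515 probe sets with 1 symbol and a mean log2 value of 5 or more. The 5 highest were Slc17a1 (r = 0.997), Prps1 (0.990), Slc22a26 (0.989), Ankrd13a (0.987) and Cyp2b9 (0.984), and the 5 lowest were Ces4a (-0.992), Selenbp2 (-0.990), Mcm10 (-0.988), Pdilt (-0.983) and Oga (-0.982). These values are a description, since any gene that splits the 7 livers into the same groups correlates with Agt. With the group means taken out, r was 0.85 for Slc17a1, an anion transporter gene, 0.48 for Prps1, a gene of nucleotide synthesis, and -0.35 for Cyp2b9, a cytochrome P450 gene of female liver. Slc17a1 was at 9.20, 9.19 and 9.24 in Trpm6-deficient 1, 2 and 3, against 8.44, 8.56, 8.46 and 8.43 in controls 1 to 4, and like Agt it was highest in Trpm6-deficient 3, highest among controls in control 2 and lowest in control 4. Slc17a1 was picked from 18515 probe sets by its likeness to Agt in these same livers. Its r of 0.85 and this order follow in part from that choice. The order also rests on small differences, such as 8.43 in control 4 against 8.44 in control 1. Of the other renin-angiotensin genes Enpep correlated most with Agt (r = 0.93 over 7 livers, 0.16 with the group means taken out), followed by Agtr1a (0.76 and -0.25).

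**Figure D3:**
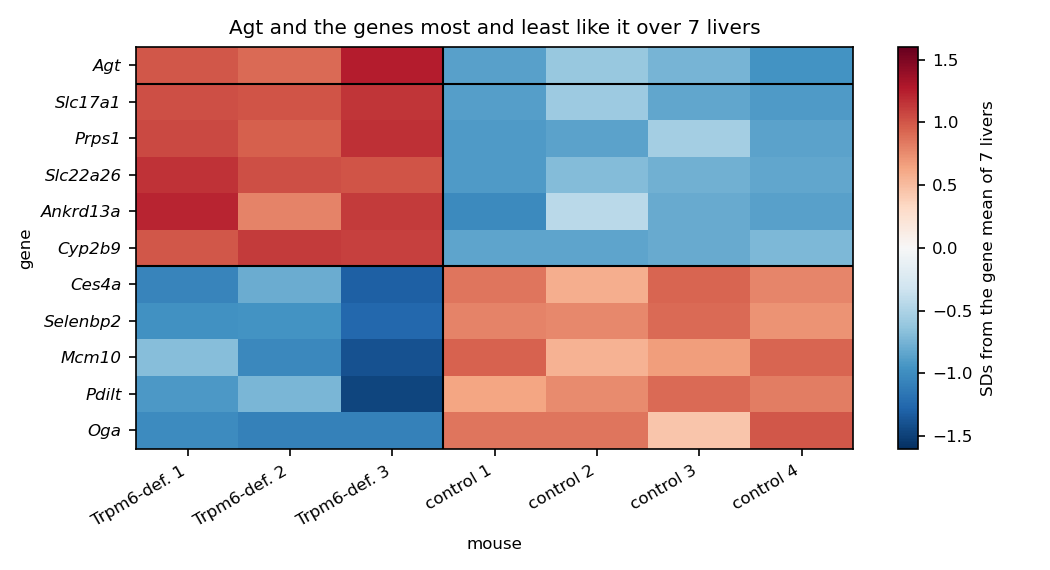
Standardized log2 expression (SDs from the mean of the 7 livers, colour) of Agt, the 5 genes most like it and the 5 least like it by Pearson's correlation, with 1 column per mouse. All 11 genes divide the 3 Trpm6-deficient from the 4 control livers, in the direction of Agt for the first 5 and against it for the last 5.

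**Figure D4:**
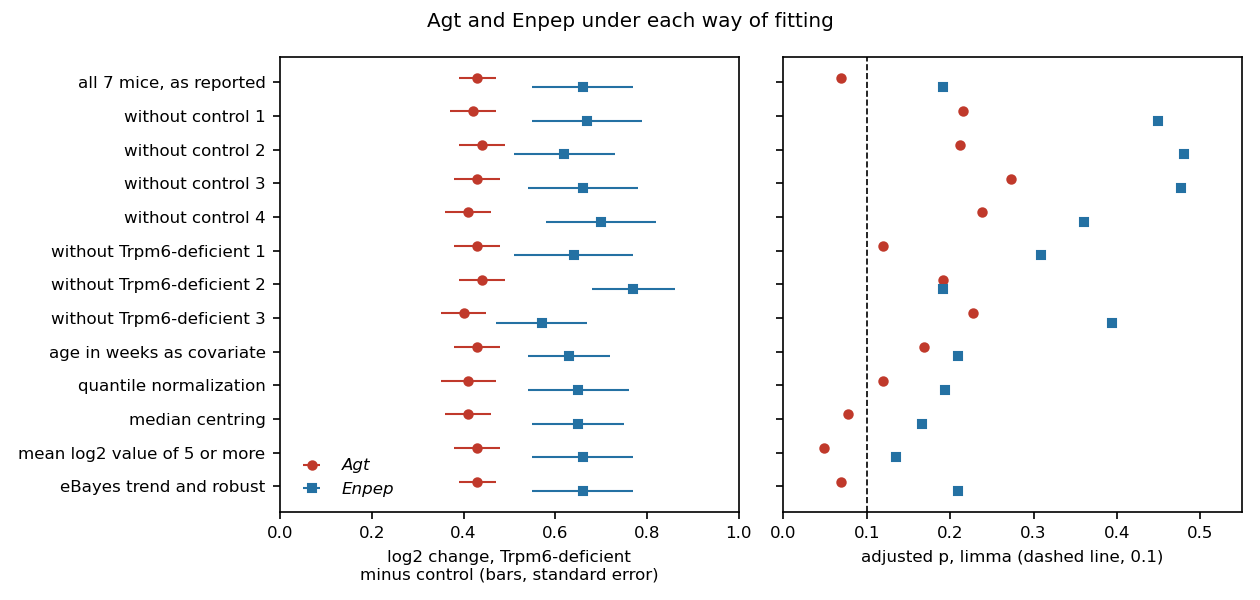
Log2 change (Trpm6-deficient minus control, with its standard error) and adjusted p from limma for Agt and Enpep with all 7 mice, with each mouse left out, and under other ways of fitting or scaling. Agt stays between 0.40 and 0.44 while its adjusted p lies on both sides of 0.1, and Enpep stays between 0.57 and 0.77 with an adjusted p above 0.1 throughout. The fit with the replicate number as a block is not drawn. That fit gave 0.41 for Agt (adjusted p = 0.388 from limma) and 0.70 for Enpep (adjusted p = 0.388).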

How the data were processed

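Liver RNA of 3 Trpm6-deficient and 4 control mice was hybridized to Affymetrix whole-transcript arrays, 1 per mouse. RMA, a method of background correction, quantile normalization and probe summary, was run by the authors in Affymetrix Expression Console 1.4.0. The deposited table holds the resulting log2 values, rounded to 2 decimals, of 35556 probe sets. The number of arrays limits the precision. The table was fitted unfiltered with limma 3.58.1 in R 4.3.3, without a covariate, and Benjamini-Hochberg adjustment ran across the whole table, with a threshold of 0.1. Gene symbols came from GEO's platform table, which gives 1 symbol for 21789 probe sets, several for 1621 and none for 12146. One listed symbol, Tmem27, was read under its current name Cltrn, and Tf under Trf. The brightest probe set of a gene was used. All 8 genes are described, and of each other list every gene with p no more than 0.05 before adjustment, together with Mme, Anpep, Nr3c2, Bdkrb1, Bdkrb2, Agtrap, Nr3c1, Stat3, Tagln, Actg2, Myh11, Cnn1, Fkbp5, Tsc22d3, Saa1, Hp and Fgb, which were added after their values were seen. Lrat, Colec11, Mt2 and the genes named only for a fit without 1 mouse were also added after their values were seen. The genes and lists were chosen with earlier results of these data known. The fit was tested on simulated data. Alternatives left out each mouse, added age or a replicate block, rescaled the arrays, removed dim probe sets, or changed the variance model or threshold.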

Additional observations from a re-analysis of the deposited data

Results flagged for a closer look

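Prps1, one of the genes most like Agt, had a log2 value of 9.42 in control 3, apart from the other controls at 9.35, 9.36 and 9.36. It was picked out because its distance to the next control takes up most of the range of the 4 controls. The Trpm6-deficient livers lay above it, at 9.73, 9.71 and 9.75. Nr3c1, Myh11 and Actg2 also had a control of this kind among 54 genes examined. Nr3c1 was at 9.51 in control 2 and at 9.45 in each other control, with 9.43, 9.45 and 9.22 in the Trpm6-deficient livers. Myh11 was at 6.31 in control 4 and at 6.60 to 6.64 in the others, with 6.64 to 6.77 in the Trpm6-deficient livers. Actg2 was at 5.63 in control 2 and at 5.70 in each other control, with 5.70 to 6.01 in the Trpm6-deficient livers. In Nr3c1 and Actg2 the other controls held identical values, so any differing value in control 2 would have been marked, however close. Chance alone marks a small share of groups of 4 in this way, and none of the 7 renin-angiotensin genes had one.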

How the results depend on the processing

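For Agt the log2 change of 0.43 kept its direction under all 13 refits (0.40 to 0.44), but its adjusted p ran from 0.0487 to 0.388 and was above 0.1 in 10 of them. Without 1 mouse the change was 0.40 to 0.44, with age as a covariate 0.43, after quantile normalization 0.41, and within the mice of 12 weeks 0.38. The number of the 7 genes that passed was 0 without any 1 mouse, with age, after quantile normalization and at an adjusted p of 0.05, against 3 at an unadjusted p of 0.05. Of the other listed genes 0 passed limma's test with all mice and 0 to 1 without 1 mouse, the 1 being Acta2 without Trpm6-deficient 1. With all mice 16 of 142 (11.3%) were nominally higher or lower, where 6.87% of all probe sets were. The lists were chosen with earlier results known, so nothing is read from this share. Agtr2, at 0.00, ranged from -0.01 to 0.02 without 1 mouse and was negative (-0.01) without control 2, after quantile normalization and after median centring. In 87 of 91 refits of the 7 genes the direction held, in 3 (Agtr2) it turned, and in 1 (Ace without Trpm6-deficient 1) the difference was exactly 0. Among genes added after their values were seen, some turned without 1 mouse. Over these refits Bdkrb1 ran from -0.02 (without control 3) to 0.06, also at -0.01 without control 2, Bdkrb2 from -0.08 to 0.01 (without control 3), Stat3 from -0.07 to 0.10 (without control 1; 0.04 and 0.01 without Trpm6-deficient 1 and 2), Hp from -0.12 to 0.01 and Fkbp5 from -0.05 to 0.23 (both turned without control 1), and Tsc22d3 from -0.11 (without Trpm6-deficient 1) to 0.47. Bdkrb1 was at -0.00 after median centring, and Stat3 at 0.02 with age.

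The labels give both groups replicate numbers 1 to 3, with no word on what they mark. Deviations from the group means of same-numbered mice correlated at 0.33, 0.26 and 0.09, and each of these 6 mice correlated best with its own number, which is a hint from the data and not from the design. With the replicate number as a block the log2 change of Agt was 0.41, 0 of the 7 genes passed, and the calls over all probe sets were 1, against 46 without it. Control 4 has no Trpm6-deficient mouse of its number, so it adds nothing to the comparison in this fit. The block also leaves little from which to estimate the spread, so the fall in calls is not a measure of the block alone. Each of the 7 genes has 1 probe set, so averaging probe sets changes nothing.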

Other observations

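Agt is known to respond to glucocorticoids and to the acute phase response, so both programs were described in the same livers. Of 12 glucocorticoid-induced genes none passed after adjustment by limma, with 2 nominally higher, 0 nominally lower and a median log2 change of 0.13. Trpm6-deficient 2 was the lowest of its group in 11 of the 12, so a higher median without it follows from that choice. Without it the median was 0.37, and Sgk1 was also nominally higher. Without Trpm6-deficient 3 the median was 0.02, and only Lcn2 was nominally higher. Without Trpm6-deficient 1 it was 0.09, with Lcn2 nominally higher, Pck1 nominally lower and Mt1 neither. Leaving out control 4 left only Lcn2 nominally higher, and leaving out control 1 or 3 made Mt2 nominally higher as well as Lcn2 and Mt1. With all mice Mt2 had the largest log2 change (2.40, SE 1.08), which was not nominal, and the groups overlapped. Fkbp5 and Tsc22d3, direct targets of the glucocorticoid receptor, had log2 changes of 0.11 (SE 0.19) and 0.14 (SE 0.30). Mt1, a metallothionein gene that metals also induce, was at 12.47, 11.45 and 11.85 in Trpm6-deficient 1, 2 and 3, against 11.01, 8.13, 10.87 and 9.06 in controls 1 to 4 (log2 change 2.16, SE 0.77, adjusted p = 0.665). Lcn2, a gene of the innate iron-withholding protein lipocalin 2, was at 9.32, 10.71 and 10.88 in Trpm6-deficient 1, 2 and 3, against 8.59, 7.95, 8.90 and 8.06 in controls 1 to 4 (log2 change 1.93, SE 0.43, adjusted p = 0.389). The groups were apart in both.

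Of 14 acute phase genes none passed after adjustment, with 2 nominally higher, 0 nominally lower and a median log2 change of -0.02. Without control 2, 3 or 4 the nominal count was 0. Without control 1 it was 2, with Apcs and Itih4 higher, and the median was 0.06. Orm2, an orosomucoid gene, was at 10.33, 9.44 and 12.32 in Trpm6-deficient 1, 2 and 3, against 9.15, 9.35, 9.19 and 8.93 in controls 1 to 4. The size of its log2 change of 1.54 (SE 0.63, adjusted p = 0.724 from limma) depended on Trpm6-deficient 3, without which it was 0.73. Orm2 stayed nominally higher without Trpm6-deficient 2 or 3, but not without Trpm6-deficient 1 or any 1 control. Apcs, the serum amyloid P gene, had a log2 change of 0.50 (SE 0.19, adjusted p = 0.685) with the groups overlapping. That overlap rested on control 1, at 11.20, where the other controls lay at 10.46 to 10.68 and the lowest Trpm6-deficient liver at 11.13. Without control 1 the log2 change of Apcs was 0.66 (unadjusted p = 0.000791, adjusted p = 0.303 from limma). Saa1, Hp and Fgb, classical acute phase genes, had log2 changes of -0.97 (SE 0.81), -0.06 (SE 0.09) and -0.05 (SE 0.07).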
